A study of Mus musculus with 6 samples.

Results

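The transcripts described here are those of the proteasome, the protease complex that degrades ubiquitin-tagged proteins in the cytosol and nucleus. They were chosen by name: the gene symbol begins with Psm, a letter from a to g and a number, and the normalised count averaged at least 10 over all libraries. Of 22027 genes in the table, 50 had such a symbol and 47 reached the minimum. GAS (gastrocnemius) muscle was taken from 14-week-old female mice fed regular chow (RC), 3 mKD mice and 3 WT mice, and poly(A)-selected RNA was sequenced with 1 library per mouse. In mKD mice, the floxed *Tet3* gene is removed by Cre recombinase expressed from the human α-skeletal actin promoter (HSA-Cre79), which acts in muscle fibres, so that nerve, vessel, fat and immune cells in the same sample keep *Tet3*. WT mice were floxed littermates. The sample labels also carry a time of 48 h for every sample, which the study's methods do not explain for tissue.

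The proteasome is built from a barrel and a cap. The barrel, the 20S core, stacks outer α rings, which gate the entrance, on inner β rings, of which *Psmb5*, *Psmb6* and *Psmb7* encode the catalytic subunits. The cap, the 19S particle, binds ubiquitin chains, removes them and threads the substrate inwards with a ring of ATPases. Under interferon, *Psmb8*, *Psmb9* and *Psmb10* replace the catalytic subunits and give the immunoproteasome, which favours peptides for MHC class I. In muscle, the proteasome degrades sarcomere proteins that ubiquitin ligases have marked, and it is best known there for its part in atrophy.

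*Tet3*, the targeted gene, had normalised counts of 425, 318 and 472 in mKD muscle, against 594, 536 and 708 in WT muscle (log2 fold change, mKD minus WT, -0.60; SE, the standard error of that difference, 0.18; adjusted p = 0.18 from limma). An exact two-sided permutation test gave p = 0.10, the smallest that 3 against 3 libraries allow. The mKD libraries held 28050939 to 32148270 reads and the WT libraries 16219227 to 26705724 reads, with the lowest total in WT library 1. Markers of Schwann cells and nerve stood apart in mKD libraries 1 and 3. Their 12 genes summed to 40280, 1893 and 12500 in mKD muscle, against 2522, 2477 and 2501 in WT muscle, so that mKD library 2 lay below all WT libraries. Of these markers 3 were called higher, and *Pmp2* was at 0 in WT libraries 2 and 3. The 10 endothelial markers summed to 7683 to 9363 in mKD muscle and 12990 to 14580 in WT muscle, and 7 of them were lower. The 8 adipocyte markers summed to 10010, 6002 and 8539 in mKD muscle, against 4779, 4872 and 4258 in WT muscle. These sums did not overlap between the genotypes, but the mean log2 difference from the WT mean over the 8 genes did. It was 3.594, 1.643 and 3.365 in mKD libraries 1, 2 and 3, against 1.978, 1.627 and -3.605 in WT libraries 1, 2 and 3. All 8 markers had a positive log2 fold change, *Cfd* and *Retn* were called higher, and 6 of the 8 were at 0 in WT library 3 alone. The 12 muscle fibre markers summed to 5442000 to 6599000 in mKD muscle and 5354000 to 6744000 in WT muscle. Of them 6 had a positive and 6 a negative log2 fold change, with *Pvalb* called higher (0.66) and *Cacna1s* called lower (-0.55). In whole tissue, fewer cells of a type and less RNA per cell cannot be told apart.

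Proteasome transcripts were mostly higher in mKD muscle. Of the 47 genes, 43 had a positive log2 fold change, and their median was 0.28, against 0.01 for all 12322 genes tested. The study's results name a cut-off of 1.2-fold with p below 0.05, read here as an unadjusted p, and its methods name a false discovery rate below 0.05, so both were used. At the first, 18 proteasome genes (38.3%) were higher, where 8.31% of all genes tested were. At the same cut-off 0 were lower, where 9.51% of all genes tested were. Each mKD library exceeded each WT library in 26 of the 47 genes (55.3%), where this held for 12.1% of all genes tested. The mKD libraries all lay below the WT libraries in 0 of the 47, where this held for 1571 of the 12322 genes tested. No proteasome gene passed an adjusted p of 0.05 in limma (18 at an unadjusted p below 0.05), where 0.0162% of all genes tested did, and edgeR on the recovered reads called 0. DESeq2 on the same reads called 7 at that level, *Psmd8*, *Psmb7*, *Psmb6*, *Psmb3*, *Psmc4*, *Psmb5* and *Psmc5*, where it called 4.91% of the 10886 genes to which it gave an adjusted p. With mKD library 2, the one with few Schwann cell reads, as the only mKD library left in, the median was 0.27 and 5 genes were called, in a fit that takes its spread from the WT libraries. Without WT library 3, the one with adipocyte markers at 0, the median was 0.26 and 14 genes were called. The part of nerve, vessel and fat RNA in the result was not tested.

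**Figure D1:**
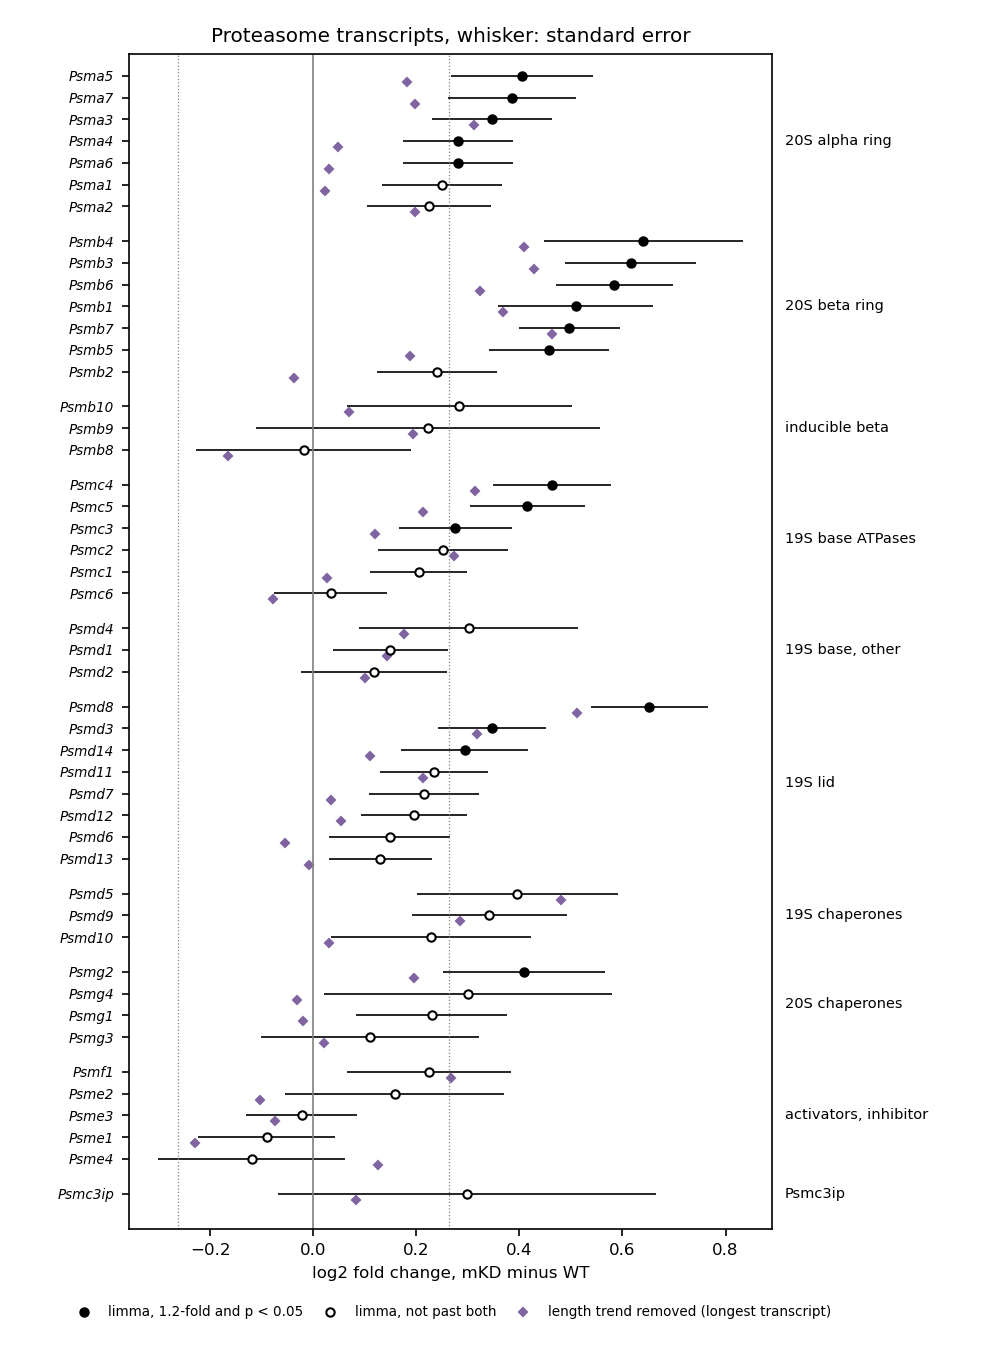
Log2 fold change, mKD minus WT, of the 47 proteasome genes by structural group. Circles with whiskers are limma estimates with standard errors, filled where a gene passed 1.2-fold with p below 0.05, diamonds are the same estimate after correction of each library for transcript length, and dotted lines mark 1.2-fold. The 20S rings, the ATPases and the lid hold 17 of the 18 filled circles, and the activators lie near 0.

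In the α ring of the 20S core, 5 of 7 genes were higher, and the median log2 fold change was 0.28. The 5 were *Psma3*, *Psma4*, *Psma5*, *Psma6* and *Psma7*, while *Psma1* (0.25) and *Psma2* (0.22) did not pass. These subunits are not proteolytic, and they carry the docking sites for the cap. *Psma7* (GRCm38 chromosome 2, 180036374 to 180042433) had normalised counts of 2178, 2171 and 1897 in mKD muscle, against 1668, 1734 and 1393 in WT muscle. Its groups did not overlap, and its log2 fold change was 0.38 (SE 0.12, adjusted p = 0.19). *Psma3* (chromosome 12, 70974621 to 70996347) had 2680, 2844 and 2651 in mKD muscle, against 2170, 2399 and 1889 in WT muscle. All 3 of its mKD libraries lay above the WT libraries, with a log2 fold change of 0.35 (SE 0.12, adjusted p = 0.20). The α ring count rested on single libraries, as it fell to 1 without WT library 3 and to 2 without any 1 of the mKD libraries.

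The β ring had the highest median log2 fold change of the groups, 0.51. Of its 7 constitutive genes 6 were higher, and in all 7 each mKD library exceeded each WT library, although for *Psmb2* only just, at 1406 against 1402. *Psmb6* (chromosome 11, 70525367 to 70527858) encodes the caspase-like catalytic subunit and had 4747, 4800 and 4302 in mKD muscle, against 2826, 3452 and 2982 in WT muscle. The lowest mKD library was thus well above the highest WT library, with a log2 fold change of 0.58 (SE 0.11, adjusted p = 0.11). *Psmb7* (chromosome 2, 38588036 to 38644087), for the trypsin-like subunit, had 6426, 6215 and 6337 in mKD muscle, against 4288, 4831 and 4346 in WT muscle. Its mean was 40.9% higher in mKD muscle, and its log2 fold change was 0.50 (SE 0.10, adjusted p = 0.11). *Psmb5* (chromosome 14, 54614119 to 54618022), for the chymotrypsin-like subunit, had 3143, 2968 and 3008 in mKD muscle, against 1945, 2482 and 2242 in WT muscle. This too left a gap between the groups, with a log2 fold change of 0.46 (SE 0.12, adjusted p = 0.15).

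Among the structural β subunits, which shape the ring without cutting, 3 of 4 were higher. *Psmb3* (chromosome 11, 97703399 to 97713500) had 2763, 2763 and 2616 in mKD muscle, against 1498, 1955 and 1894 in WT muscle (log2 fold change 0.62, SE 0.13, adjusted p = 0.11). *Psmb4* averaged 3680 ± 295 in mKD muscle and 2412 ± 606 in WT muscle (SD, n = 3 each), with a log2 fold change of 0.64 and an SE of 0.19, the widest of the ring. *Psmb1* averaged 3183 ± 43.9 in mKD muscle and 2266 ± 452 in WT muscle (log2 fold change 0.51). For *Psmb4* the WT spread came largely from WT library 1, at 1712 against 2749 and 2775. *Psmb1* had 1807, 2712 and 2280 in WT muscle, so its spread came from both WT library 1 and WT library 2. Without WT library 1 the log2 fold changes of *Psmb4* and *Psmb1* were 0.41 and 0.36. *Psmb2* had a log2 fold change of 0.24 and did not pass. Named pseudogenes exist for *Psmb5*, *Psmb6* and *Psmb7*, and whether their reads were told apart is not given in the sources used here. Exons of 12 of the 47 genes overlap another gene on the other strand, and exons of 3 overlap one on the same strand. Among the genes called higher these were *Psma4*, *Psma5*, *Psmb7*, *Psmc3* and *Psmd3* on the other strand, and *Psmb5* (with *Mir686*) on the same strand.

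**Figure D2:**
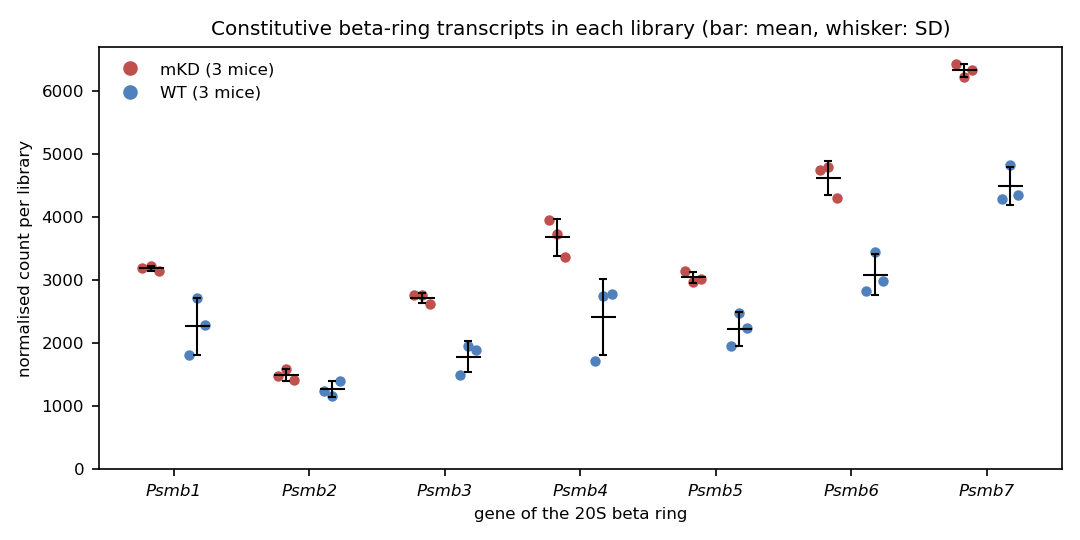
Normalised count per library of the 7 constitutive β-ring genes, mKD left of WT, with mean and SD (n = 3 each). In every gene the 3 mKD points lie above the 3 WT points, by the smallest margin in *Psmb2* (1406 against 1402).

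Of the inducible subunits that replace the catalytic β subunits, 0 of 3 were called in either direction. *Psmb8*, the counterpart of *Psmb5*, had 126, 127 and 114 in mKD muscle, against 96.6, 137 and 142 in WT muscle (log2 fold change -0.02, SE 0.21). *Psmb9*, the counterpart of *Psmb6*, had 76.9, 53.3 and 35.7 in mKD muscle, against 42.8, 44.1 and 48.3 in WT muscle (0.22, SE 0.33). *Psmb10*, the counterpart of *Psmb7*, had 315, 236 and 183 in mKD muscle, against 211, 174 and 205 in WT muscle (0.28, SE 0.22). The genotypes overlapped in all 3 genes, and in *Psmb9* and *Psmb10* mKD library 1 was the highest and mKD library 3 was the lowest or next to lowest. Exons of *Psmb9* overlap those of *Tap1* on the other strand, and the library kit marks strand, but its use in counting is not given in the sources used here. Macrophage and leukocyte markers, the cells richest in immunoproteasome, summed to 766 to 986 in mKD muscle and 893 to 1020 in WT muscle, and 0 of 12 were called. Of them, *Adgre1* was at 0 in mKD library 1 and WT library 1, *Cd68* was at 0 in mKD library 3, and 1 of 2 gene identifiers named *Itgam* was at 0 in WT library 3.

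The immunoproteasome genes were expressed at 0.489% to 4.35% of their constitutive counterparts, in counts per kilobase of the principal transcript. *Psmb8* reached 2.22%, 2.36% and 2.08% of *Psmb5* in mKD muscle, against 2.74%, 3.06% and 3.50% in WT muscle. These ratios did not overlap, and an exact two-sided permutation test gave p = 0.10, the smallest possible, and p = 0.30 after adjustment over the 3 ratios. *Psmb5*, the denominator, was called higher, and *Psmb8* was not called. *Psmb9* reached 0.700% ± 0.237 of *Psmb6* in mKD muscle and 0.868% ± 0.103 in WT muscle, and *Psmb10* reached 3.41% ± 0.89 of *Psmb7* in mKD muscle and 3.90% ± 0.63 in WT muscle (SD, n = 3 each). Both of these overlapped between genotypes.

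In the base of the 19S cap, 3 of 6 ATPase genes were higher, with a median log2 fold change of 0.26. These subunits form the ring that unfolds substrates. *Psmc4* (chromosome 7, 28041707 to 28050101) had 2331, 2342 and 2205 in mKD muscle, against 1519, 1889 and 1601 in WT muscle. Its groups did not overlap, with a log2 fold change of 0.46 (SE 0.11, adjusted p = 0.15). *Psmc5* (chromosome 11, 106256154 to 106263120) had 4262, 4345 and 4342 in mKD muscle, against 3171, 3648 and 2929 in WT muscle, and its log2 fold change was 0.42 (SE 0.11, adjusted p = 0.16). *Psmc3* passed at 0.28 and shares exon sequence with *Slc39a13* on the other strand, while *Psmc1* (0.20) and *Psmc2* (0.25) did not pass although their libraries did not overlap. *Psmc6* stood at 0.03 (SE 0.11), and its groups overlapped.

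Of the other base subunits 0 of 3 passed. *Psmd4*, a ubiquitin receptor, had 3628, 2964 and 5304 in mKD muscle, against 2769, 3594 and 3063 in WT muscle, so that mKD library 3 alone lay far above the rest (log2 fold change 0.30, SE 0.21). *Psmd1*, a scaffold, had 5234, 5429 and 5630 in mKD muscle, against 4742, 5532 and 4467 in WT muscle (0.15, SE 0.11). *Psmd2*, the other scaffold, had a log2 fold change of 0.12. In these 3 genes WT library 2 lay within the mKD range.

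The lid of the cap, which holds the deubiquitinase, had 3 of 8 genes higher and a median log2 fold change of 0.22. *Psmd8* (chromosome 7, 29174188 to 29180701), a lid subunit whose yeast counterpart joins last in lid assembly, had the largest log2 fold change of all 47 genes. Its normalised counts were 3495, 3762 and 3653 in mKD muscle, against 2268, 2614 and 2086 in WT muscle. Means were 56.6% higher in mKD muscle without overlap, and the log2 fold change was 0.65 (SE 0.11, adjusted p = 0.091). *Psmd3* (chromosome 11, 98682554 to 98695979), a structural lid subunit, had 3864, 3738 and 3688 in mKD muscle, against 2678, 3188 and 3031 in WT muscle. Its libraries did not overlap either, with a log2 fold change of 0.35 (SE 0.10, adjusted p = 0.18). *Psmd14*, the deubiquitinase, passed at 0.29 (SE 0.12), but lost the call without any of 5 of the 6 libraries, the exception being WT library 2. *Psmd6* (0.15), *Psmd7* (0.21), *Psmd11* (0.23), *Psmd12* (0.20) and *Psmd13* (0.13), structural subunits of the lid, did not pass.

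The assembly factors, which help build the particle and then leave it, had 98.4 to 424 normalised counts per kilobase on average in mKD muscle and 75.8 to 319 in WT muscle, while no gene of the cap or the constitutive rings averaged under 640. *Psmd9*, a chaperone of the base, had 729, 668 and 563 in mKD muscle, against 591, 485 and 470 in WT muscle (log2 fold change 0.34, SE 0.15). *Psmd5*, another base chaperone, had 398, 490 and 410 in mKD muscle, against 261, 317 and 422 in WT muscle (0.40, SE 0.20). In both, 1 WT library lay inside the mKD range, and with *Psmd10* (gankyrin, 0.23) 0 of the 3 base chaperones passed. Of the 4 chaperones of the 20S core 1 passed. *Psmg2*, which pairs with *Psmg1* to assemble the α ring, had 517, 429 and 400 in mKD muscle, against 291, 369 and 351 in WT muscle. The groups did not overlap (log2 fold change 0.41, SE 0.16, adjusted p = 0.24), but the call was lost without mKD library 1, mKD library 2 or WT library 1. *Psmg1* had 233, 233 and 207 in mKD muscle, against 206, 184 and 184 in WT muscle (0.23, SE 0.15), a narrow gap that did not pass. *Psmg3* (0.11) and *Psmg4* (0.30), which pair with each other, overlapped between genotypes.

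The activators open the barrel without the 19S cap. With the inhibitor, 0 of 5 genes passed in either direction, the genotypes overlapped in all 5, and their median log2 fold change was -0.02. *Psmf1*, which encodes PI31, first described as an inhibitor, had 406, 486 and 552 in mKD muscle, against 369, 401 and 461 in WT muscle (0.22, SE 0.16). *Psme2*, an interferon-induced subunit of the PA28 ring, had 427, 467 and 436 in mKD muscle, against 282, 456 and 487 in WT muscle (0.16, SE 0.21). Its partner *Psme1* had -0.09 (SE 0.13), the nuclear activator *Psme3* had -0.02 (SE 0.11) and *Psme4*, which encodes PA200, had -0.12 (SE 0.18). These 3 genes and *Psmb8* were the 4 with a negative value among the 47.

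The remaining symbols were not subunits of the muscle proteasome. *Psmc3ip* encodes a cofactor of meiotic recombination, and it had a log2 fold change of 0.30 with an SE of 0.37. *Psma8* (testis) and *Psmb11* (thymus) were at 0 in all 6 libraries. *Psme2b*, a near copy of *Psme2*, averaged 6.70 and was not tested, and how reads were divided between these 2 genes is not given in the sources used here.

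Seen by library, the mKD samples were alike. Proteasome genes took 0.451%, 0.432% and 0.451% of all reads in mKD muscle, against 0.353%, 0.395% and 0.358% in WT muscle. The mean log2 difference from the WT mean was 0.31, 0.28 and 0.25 in mKD libraries 1, 2 and 3, against -0.08, 0.09 and -0.01 in WT libraries 1, 2 and 3. In the β ring it was 0.54, 0.53 and 0.45 in mKD muscle, against -0.20, 0.14 and 0.06 in WT muscle. Of the 18 genes called higher, 10 were called in each of the 6 fits that left out 1 library, namely *Psmb1*, *Psmb3*, *Psmb4*, *Psmb5*, *Psmb6*, *Psmb7*, *Psmc4*, *Psmc5*, *Psmd3* and *Psmd8*. These fits share most of their libraries, and the share of all genes tested that were called in all 6 is not given here.

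**Figure D3:**
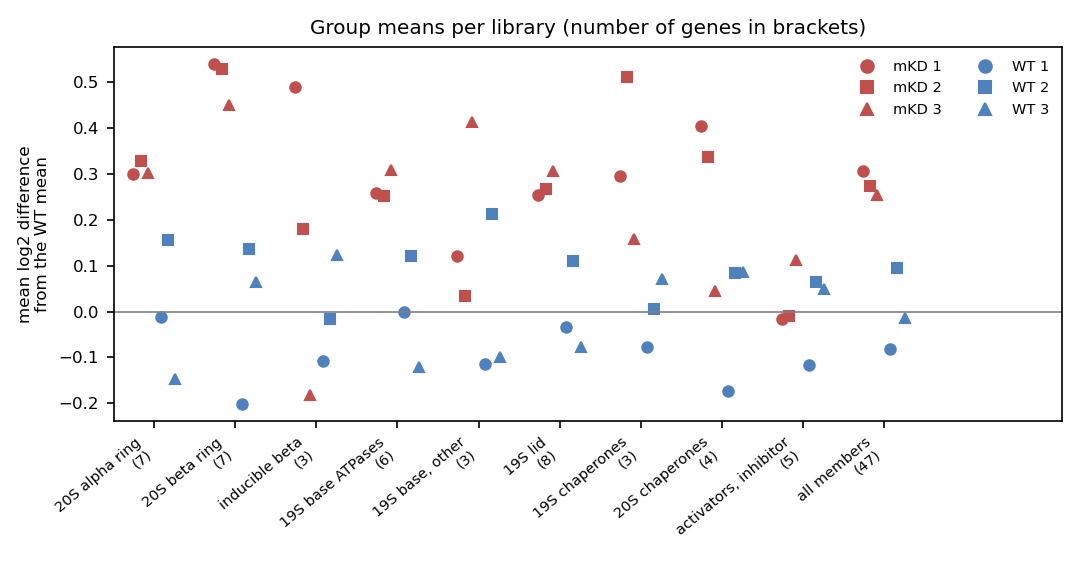
Mean log2 difference from the WT mean for each structural group and library, mKD (red) left of WT (blue), with the number of genes in brackets. The 3 mKD libraries lie above the 3 WT libraries in the α ring, the β ring, the ATPases, the lid, the 19S chaperones and over all 47 genes, and overlap them in the other groups.

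Proteasome transcripts are short, and in these libraries fold change went with length. The longest annotated transcript had a median of 1883 nucleotides among the 47 genes and 3480 nucleotides among all genes tested. Across all genes the Spearman correlation of log2 fold change with that length was -0.45, and within the 47 genes it was -0.31 (n = 47 genes from the same 6 libraries, given as a description). The effect of removing each library's trend over length depended on which transcript gave the length. With the longest transcript, 9 proteasome genes (19.1%) were higher, where 5.60% of all genes tested were, and the median of the 47 was 0.12, against 0.03 for all genes. With the median transcript, 15 (31.9%) were higher, where 7.45% of all genes tested were, and the median was 0.21. With the principal transcript as the length, a choice made after seeing the data, 10 (21.3%) were higher, where 5.28% of all genes tested were, and *Psme1* was lower (-0.31). The part of transcript length in the result was not tested beyond this.

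With the length trend taken out by the longest transcript, the β ring had a median of 0.37 with 4 of 7 genes higher, and the lid had 0.08 with *Psmd3* and *Psmd8* still higher. The α ring had 0.18 with only *Psma3* still called, and the ATPases to 0.17 with only *Psmc4*. *Psmd8* stood at 0.51 (SE 0.11), *Psmb7* at 0.46 (SE 0.10), *Psmb3* at 0.43 (SE 0.12) and *Psmb6* at 0.32 (SE 0.11). *Psmb2*, whose longest transcript has 859 nucleotides, moved to -0.04, and *Psmb5*, with 899 nucleotides, to 0.19. *Psmd5*, with 4397 nucleotides, went the other way and passed at 0.48 (SE 0.20). *Psmb3*, *Psmb6*, *Psmb7*, *Psmc4* and *Psmd8* were the 5 genes called higher in every one of the 21 fits that were run. All 21 fits draw on the same 6 libraries, and the share of all genes tested that were called in every fit is not given here. By the median transcript instead, the β ring had a median of 0.54 with 6 of 7 genes higher, the α ring had 0.28 with 4 of 7 and the ATPases had 0.29 with 3 of 6. *Tet3* itself stood at -0.22 with the longest transcript and -0.37 with the median transcript, and was called in neither.

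**Figure D4:**
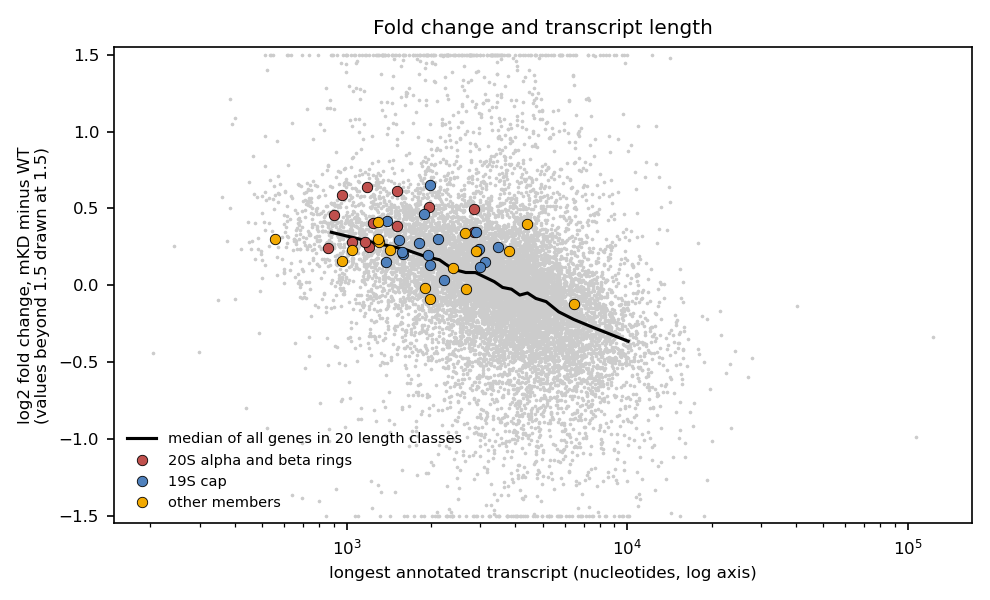
Log2 fold change, mKD minus WT, against the longest annotated transcript on a log axis, for all genes tested (grey) and the proteasome genes (coloured), with the median of all genes in 20 length classes as a line. Most proteasome genes lie at the short end, and most genes of the 20S rings lie above the line.

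The levels of subunits that enter the complex in equal number differed within each ring by a few fold. In normalised counts per kilobase of the principal transcript, *Psma6* was the highest α-ring gene, at 2802 ± 109 in mKD muscle and 2313 ± 209 in WT muscle, and *Psma2* the lowest, at 776 ± 13.7 in mKD muscle and 668 ± 86.7 in WT muscle (SD, n = 3 each). The highest gene of the ring was 3.61-fold over the lowest in mKD muscle and 3.46-fold in WT muscle. In the β ring, *Psmb6* stood at 5785 ± 343 in mKD muscle and 3868 ± 408 in WT muscle, and *Psmb7* at 5453 ± 91.5 in mKD muscle and 3869 ± 257 in WT muscle, and these neighbours did not differ beyond their spread in either genotype. *Psmb1* and *Psmb2* were the lowest β-ring genes and did not differ beyond their spread from each other. The per-kilobase median of the ring was 3382 in mKD muscle and 2327 in WT muscle. Among the ATPases *Psmc3* was the highest, at 3735 ± 303 in mKD muscle and 3083 ± 213 in WT muscle, and *Psmc6* the lowest, at 971 ± 50.8 in mKD muscle and 951 ± 84.8 in WT muscle. In the lid *Psmd7* was the highest, at 3089 ± 183 in mKD muscle and 2665 ± 218 in WT muscle, and the catalytic *Psmd14* the lowest, at 781 ± 32.5 in mKD muscle and 640 ± 79.9 in WT muscle. These orders depend on the transcript taken as the length. The principal and median transcripts have 1541 and 563.5 nucleotides for *Psmd14*, and 2234 and 794.5 for *Psmc6*. Levels by the median transcript are not given here.

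**Figure D5:**
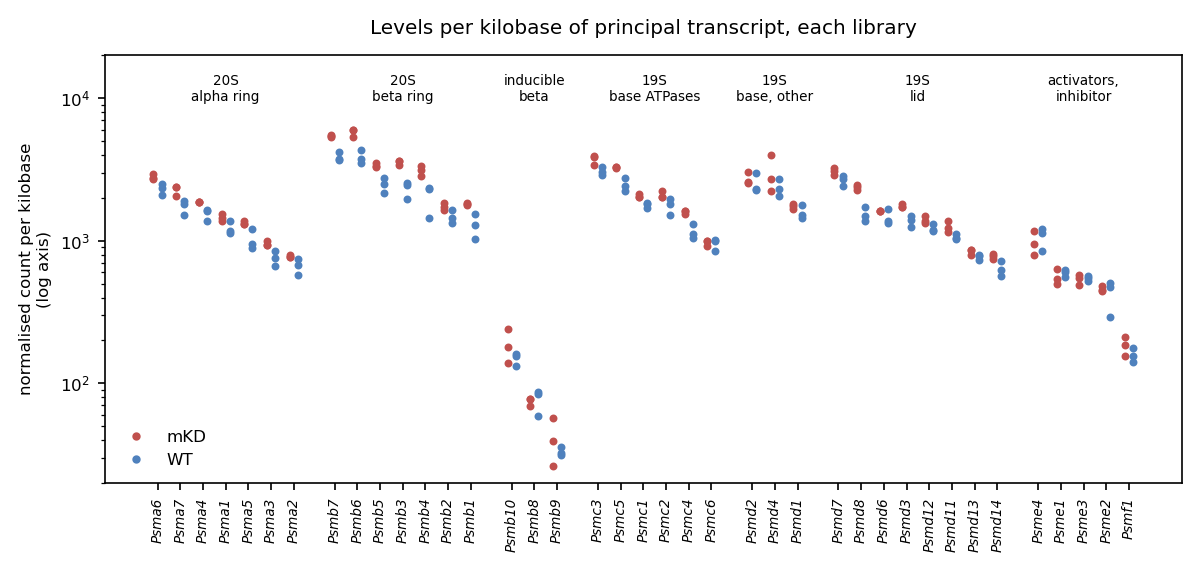
Normalised count per kilobase of the principal transcript in each library, on a log axis, mKD (red) left of WT (blue), ordered by the WT mean within each group. The inducible β subunits lie below every constitutive one, and the mKD points of the constitutive β ring lie above the WT points.

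Promoter sequences are shown as a description of these genes, and the part of promoter sequence in the result was not tested. RefSeq windows on GRCm38.p6, from 250 bases before to 50 bases after the start of the gene, were at hand for 40 of the 47 genes. *Psmb1*, *Psmb2*, *Psmb7*, *Psmc3*, *Psmd3*, *Psmd7* and *Psmg2* have no window there. The 5 windows below belong to *Psmb3*, *Psmb6*, *Psmc4* and *Psmd8*, called higher in every fit, and to *Psme4*, the activator with the lowest log2 fold change. They are written 5′ to 3′ on the strand of the gene, and capitals mark the 2 motifs CGGAAG, the core bound by ETS factors, and TGACNNNGC, the core of the antioxidant response element bound by NRF1 and NRF2, on either strand.
Psmb3 (chr11:97703184-97703483, plus strand): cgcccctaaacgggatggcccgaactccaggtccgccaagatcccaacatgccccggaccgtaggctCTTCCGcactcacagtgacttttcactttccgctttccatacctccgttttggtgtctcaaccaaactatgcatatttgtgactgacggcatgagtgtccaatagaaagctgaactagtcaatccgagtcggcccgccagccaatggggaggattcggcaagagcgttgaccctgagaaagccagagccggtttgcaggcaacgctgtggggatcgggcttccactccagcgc
Psmb6 (chr11:70525107-70525406, plus strand): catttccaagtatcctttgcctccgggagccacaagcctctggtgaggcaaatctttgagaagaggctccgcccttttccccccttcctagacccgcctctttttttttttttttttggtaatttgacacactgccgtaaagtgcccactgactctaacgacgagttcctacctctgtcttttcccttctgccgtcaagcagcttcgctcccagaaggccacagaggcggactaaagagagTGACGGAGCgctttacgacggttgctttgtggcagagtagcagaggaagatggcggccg
Psmc4 (chr7:28050043-28050342, minus strand): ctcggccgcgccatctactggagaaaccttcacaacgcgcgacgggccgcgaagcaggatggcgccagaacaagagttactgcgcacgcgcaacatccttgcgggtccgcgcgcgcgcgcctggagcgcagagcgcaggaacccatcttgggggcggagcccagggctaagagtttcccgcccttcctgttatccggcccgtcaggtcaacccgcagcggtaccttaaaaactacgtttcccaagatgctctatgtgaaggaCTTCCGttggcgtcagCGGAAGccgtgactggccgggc
Psmd8 (chr7:29180624-29180923, minus strand): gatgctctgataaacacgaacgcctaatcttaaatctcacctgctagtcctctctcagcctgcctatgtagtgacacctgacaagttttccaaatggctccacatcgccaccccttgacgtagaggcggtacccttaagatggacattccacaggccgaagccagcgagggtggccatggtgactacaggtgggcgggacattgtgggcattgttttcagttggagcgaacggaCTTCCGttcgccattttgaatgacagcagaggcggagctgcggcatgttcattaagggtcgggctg
Psme4 (chr11:30771525-30771824, plus strand): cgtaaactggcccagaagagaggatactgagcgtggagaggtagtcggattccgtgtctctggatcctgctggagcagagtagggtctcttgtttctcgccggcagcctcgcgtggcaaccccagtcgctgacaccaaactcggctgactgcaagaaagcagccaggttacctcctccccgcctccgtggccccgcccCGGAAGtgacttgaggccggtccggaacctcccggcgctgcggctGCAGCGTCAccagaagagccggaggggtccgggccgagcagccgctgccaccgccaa

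The ETS core was the motif that exceeded its background share in tested genes by the most. CGGAAG or its reverse complement CTTCCG was found in 22 of 40 proteasome genes (55.0%), against 34.5% of the 9570 tested genes with a window and 18.8% of all 27025 genes with a window. It stood in 7 of 13 genes called higher and 15 of 27 that were not. In *Psmc4* it occurred at base 13 after the start as CTTCCG and again at base 29 as CGGAAG, in *Psmd8* at base -16 as CTTCCG and in *Psme4* at base -52 as CGGAAG. TGACNNNGC was found in 6 of 40, against 17.1% of tested genes with a window, namely in *Psmb5*, *Psmb6*, *Psmc6*, *Psmd9*, *Psmd12* and *Psme4*. It lay at base -9 in *Psmb6* as TGACGGAGC. The GC box GGGCGG was found in 23 of 40 (57.5%, against 69.4% of tested genes), the CCAAT box CCAAT in 14 (35.0%, against 42.7%), TATAAA in 4 (against 8.89%) and the CRE core TGACGT in 4 (against 13.1%), each on both strands. A match is a run of letters and not a bound site, and no binding data were analysed here.

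Genes that work with the proteasome but carry other symbols were taken from lists, to be read against the 8.31% of all genes tested that were higher and the 9.51% that were lower. Of 10 tested proteins that bind or build the proteasome, 5 were higher and 0 were lower, with a median log2 fold change of 0.26. *Pomp*, the chaperone that closes the 20S core, had 1575, 1454 and 1610 in mKD muscle, against 1033, 1208 and 1096 in WT muscle (log2 fold change 0.48, SE 0.11, adjusted p = 0.14). *Adrm1*, a ubiquitin receptor of the cap, had 2052, 2159 and 2274 in mKD muscle, against 1581, 1729 and 1479 in WT muscle (0.44, SE 0.11). *Usp14*, a deubiquitinase bound to the base, had 749, 785 and 943 in mKD muscle, against 520, 637 and 525 in WT muscle (0.56, SE 0.14). In all 3 the groups did not overlap, and all 3 were called with the length trend removed by any of the 3 transcript lengths. *Sem1*, the small lid subunit, and *Txnl1*, a thioredoxin of the cap, passed at 0.30 each. With the length trend removed, *Sem1* was not called with the longest transcript (0.19) or the principal one (0.14), and *Txnl1* was not called with the median one (0.24).

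Of the factors that drive proteasome genes or carry substrates to the complex, the RNA of none passed as higher. Of 14 transcription and shuttle factors 0 were higher and 1 was lower, a number near the share of lower calls over all genes. *Ddi2*, the protease that activates NRF1, had 1222, 1376 and 1544 in mKD muscle, against 2034, 2581 and 1965 in WT muscle, without overlap (log2 fold change -0.66, SE 0.15, adjusted p = 0.13), though with the length trend removed it was -0.31 and did not pass. *Nfe2l1*, which encodes NRF1, had a log2 fold change of -0.28 (SE 0.16) and did not pass. *Nfe2l2*, which encodes NRF2, had -0.22 (SE 0.13) and did not pass, though with the length trend removed it was called lower with the longest transcript (-0.30, SE 0.13) and not with the other lengths. NRF1 is switched on by cleavage, which counts of RNA do not show.

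Among genes for ubiquitin and its activation, which act upstream of the proteasome, the numbers called were close to the shares over all genes. Ubiquitin, its relatives and their activating enzymes were 11 listed genes under 12 gene identifiers, as *Sumo3* has 2. Of these 12, *Rps27a*, a ubiquitin-ribosomal fusion, was higher (0.33, SE 0.10) and *Uba6*, an activating enzyme, was lower (-0.69, SE 0.20). With the length trend removed, *Rps27a* was not called with any transcript length, and *Uba6* was called only with the median one (-0.48). Of 32 ubiquitin-conjugating enzymes 6 were higher and 2 lower, with a median of 0.14. The 6 higher are a larger share than the 8.31% over all genes tested, and the 2 lower a smaller share than the 9.51%. *Ube2s* rose with a log2 fold change of 0.50 (SE 0.11), *Ube2g1* rose with 0.46 (SE 0.11) and *Ube2h* fell with -0.35 (SE 0.10). With the length trend removed, *Ube2s* and *Ube2g1* were called with all 3 lengths, but *Ube2h* was called with the median transcript (-0.42) and not with the longest (-0.24) or the principal one (-0.20). Of 16 genes of MHC class I antigen processing, which take up the peptides, 0 passed in either direction and the median was 0.01. *Irf1*, the interferon factor that drives the immunoproteasome genes, had 185, 131 and 140 in mKD muscle, against 258, 178 and 204 in WT muscle, with a log2 fold change of -0.49 (SE 0.21). Its groups overlapped, and it did not pass, but it was called lower with the length trend removed, at -0.61 with the longest, -0.56 with the principal and -0.55 with the median transcript. *Rfx5* (0.39, SE 0.20) passed only with the longest transcript (0.48), and *Pdia3* (0.20, SE 0.11) passed in none of these fits.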

How the data were processed

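Gene expression in GAS muscle of 3 mKD and 3 WT mice was read from the deposited table. Per the labels, libraries were made with a stranded poly(A) kit, and the submitters' processing notes name GRCm38 (mm10). The study used Partek Flow and DESeq2, while no source used here names the aligner or counter. The values are a normalised signal deposited by the authors, read counts divided by 1 factor per library, and 100% of values became whole reads within 0.0001 on dividing by the smallest. Columns of the authors' own comparison, WT over mKD, were left out: log2 fold changes, p-values raw and adjusted, and a standard error and test statistic, which the authors deposited as score columns.

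Genotypes were compared with limma 3.58.1 (R 4.3.3) on log2(value + 1), which understates changes of low genes, over 12322 genes left by the edgeR filter on low counts, with Benjamini-Hochberg adjustment over all of them. All 47 proteasome genes passed the filter, and the lowest had 27 reads in a library. A gene was called at 1.2-fold with an unadjusted p below 0.05, and adjusted p-values below 0.05 were counted beside it. The replicates are mice. The limma p-values weigh the difference between genotypes against the spread between libraries of the same genotype, which limma draws towards a trend over all genes tested.

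Alternatives were TMM and upper-quartile scaling, no filter, a mean of at least 50, pseudocounts of 0.5 and 4, edgeR 4.0.16 and DESeq2 1.42.0 on the recovered reads, a lowess trend (span 0.3) over transcript length removed from each library, a replicate block, and libraries left out. Lengths, coordinates and overlaps come from GENCODE M21, which holds 99.4% of the gene identifiers. Scripts were tested on simulated counts. Named genes are all those of the symbol pattern, with values per library for the 2 with the smallest p in each structural group, the inducible subunits and their counterparts, and up to 3 genes with the smallest p of each further list, and *Psmb3*, *Psmb1*, *Psmb4*, *Sem1* and *Txnl1* were added after their values were seen. A few genes that the rule would name are left out of the text. The members and lists were chosen with earlier results of these data known, as were the motifs.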

Additional observations from a re-analysis of the deposited data

How the results depend on the processing

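Of 47 proteasome genes, 18 were higher in limma, and this number was 9 with the length trend removed by the longest transcript, 9 with a replicate block and the length trend removed, 10 with the principal transcript as the length (1 lower), 15 with the median transcript as the length, and 5 without mKD libraries 1 and 3, which leaves 1 mKD library assumed to vary like the WT libraries. It ranged from 12 (without mKD library 1) to 21 (without WT library 2) when 1 library was left out. At an adjusted p of 0.05, DESeq2 called 7 and limma 0. The median log2 fold change of 0.28 ranged from 0.24 to 0.30 over the left-out libraries, and was 0.12 without the trend over the longest transcript, with or without a replicate block, 0.13 with the principal transcript and 0.21 with the median transcript. The median of the 20S chaperones turned to -0.0026 with the principal transcript, that of the inducible subunits ranged from -0.043 (without mKD library 1) to 0.47 (without mKD library 3), and *Psmc3ip* turned to -0.21 without mKD libraries 1 and 3. Except where the setting itself removes libraries, the cause was not tested.

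Over all genes, the 1024 higher were 589 with a replicate block and the length trend removed, 649 with the principal transcript, 459 without mKD libraries 1 and 3, and 581 to 1111 with 1 library left out, and the 1172 lower were 617 without the length trend, 494 with a replicate block and the length trend removed, 609 with the principal transcript, 734 without mKD libraries 1 and 3, and 839 to 1193 with 1 library left out. Same-numbered libraries did not deviate together (correlations 0.06, -0.05 and -0.08), which does not show whether the numbers mark pairs of mice. The replicate block alone called 14 proteasome genes. Over single genes and settings, 803 values kept their sign and stayed called or uncalled as in the main limma fit. A further 81 lost the call, 17 gained it and 38 changed sign with no call in either fit.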
